A study of Mus musculus with 21 samples.

Results

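The comparison set mouse embryoid bodies expressing a TWIST1-TCF4 dimer against embryoid bodies expressing the TWIST1 monomer, using every sample titled as one or the other. These were 6 of the 21 samples of the series, 3 in each group, and every gene of the deposited tables entered. All lines were derived from A2loxCre embryonic stem cells, a mouse line of the C57BL/6 strain (per the labels) in which a coding sequence is placed at a fixed site behind a promoter that doxycycline switches on. RNA was taken from whole embryoid bodies, which are floating aggregates of differentiating stem cells, on day 3 of differentiation. In both groups doxycycline had been present for the last 16 h. The dimer construct carries TWIST1 and TCF4 together, and the monomer construct carries TWIST1 alone. For the monomer line the series also has 3 samples without doxycycline. For the dimer line no uninduced samples were analysed here, and 3 samples of the parental A2loxCre line with doxycycline and no transgene were used beside it. The labels do not say whether a line is 1 clone, nor whether the 3 samples of a group came from separate cultures, so p-values measure the spread between these samples, which may be technical.

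TWIST1 belongs to the basic helix-loop-helix factors and acts in mesoderm and neural crest. Proteins of this family bind DNA as pairs at short sites called E-boxes, and the widely expressed E-proteins TCF3, TCF4 and TCF12 are common partners. ID proteins have the helix-loop-helix but no DNA-binding part, and they hold E-proteins in pairs that cannot bind. A mesenchymal change of state in the early embryo is known to involve repressors such as SNAI1 and ZEB2, while cells of the primitive and visceral endoderm secrete laminin and collagen IV into a basement membrane.

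Total counts were 11434317 to 15999693 in the 3 dimer samples and 8913574 to 9398646 in the 3 monomer samples. Mitochondrial genes took 1.97%, 2.15% and 2.38% of counts in the dimer samples and 2.40%, 2.59% and 2.57% in the monomer samples, so the groups did not overlap, and the part of this difference in the results was not tested. All counts thinned to the lowest total gave 5616 calls against 6592 without thinning. Pou5f1, a transcription factor of pluripotent cells, stood at 523 to 603 CPM across the 6 samples, and the trophoblast genes Tpbpa and Prl3d1 had no counts. CPM is the usual scaled count of a gene, its share of the sample's total after TMM scaling of that total.

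The construct genes were measured first, as a check of the labels. Reads of a transgene and of the gene's own locus could not be told apart. Twist1 stood at 42.1, 40.7 and 36.4 CPM in the dimer samples and 649, 607 and 586 CPM in the monomer samples. All dimer samples were therefore far below all monomer samples, and the log2 fold change, dimer minus monomer, was -3.96 ± 0.06 (SE, n = 3 per group, adjusted p = 9.6e-29, edgeR quasi-likelihood test with Benjamini-Hochberg adjustment, as for every adjusted p below). Both groups were above the parental line, at 7.44 to 9 CPM, and the uninduced monomer line, at 4.41 to 5.68 CPM. Tcf4 stood at 351, 340 and 308 CPM in the dimer samples and 41.2, 36.1 and 36.8 CPM in the monomer samples. Here the dimer samples were the high ones, by 3.13 ± 0.08 on the log2 scale (adjusted p = 9.1e-24), and the monomer samples lay below the parental 41.4 to 56.0 CPM. Tcf12, another E-protein gene, was 94.5, 93.2 and 85.7 CPM against 68.7, 57.5 and 64.2 CPM. It passed as higher in the dimer group by 0.52 ± 0.08 (adjusted p = 2.7e-06). Tcf3 was 176, 176 and 185 CPM against 178, 172 and 149 CPM, the groups overlapped, and it did not pass (adjusted p = 0.080). It passed without monomer sample 1 and with no scaling factors. The groups thus differ in the counted level of Twist1 transcripts as well as in the partner, and the 2 differences cannot be told apart in this design. Whether the counts take in all transcripts of each construct was not tested.

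Of 14084 genes tested, 6592 passed at an adjusted p under 0.05, or 46.8%. Of these, 3471 were higher in the dimer group (24.6% of tested genes) and 3121 lower (22.2%). A change of at least 2-fold was seen in 1138 genes (8.08%), 566 higher (4.02%) and 572 lower (4.06%), and the median log2 fold change of all tested genes was 0.01. The dimer samples all lay above the monomer samples for 28.3% of tested genes and all below for 25.5%. The fit held 18 samples, all but the 3 labelled as the TCF12 dimer. With all 21 samples the biological coefficient of variation, the spread between samples of a group beyond counting noise, was 0.12 in place of 0.0536, and 3928 genes passed. With the TCF12 dimer sample 1 alone left out it was 0.0539, and 6561 genes passed.

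The monomer line stood apart from the parental line before induction. Between the uninduced monomer line and the parental line, 5363 genes passed (38.1%), 2738 higher (19.4%) and 2625 lower (18.6%). No sample of that comparison is in the dimer and monomer groups. Of the 572 genes at least 2-fold lower in the dimer group, 465 (81.3%) were higher in the uninduced monomer line than in the parental line and 6 were lower, and the 465 were 17% of all genes higher there. Of the 566 genes at least 2-fold higher in the dimer group, 295 (52.1%) were lower in the uninduced monomer line, 11.2% of all genes lower there, and 6 were higher. For genes lower in the dimer group at any fold these figures were 1942 of 3121 (62.2%), or 70.9% of the genes higher in the uninduced line. For genes higher in the dimer group they were 1822 of 3471 (52.5%), or 69.4% of the genes lower in the uninduced line. The parental samples had doxycycline for 16 h and the uninduced monomer samples had none. Line and doxycycline therefore cannot be told apart between these groups. A difference between the cell lines and an effect of the dimer cannot be told apart where only the comparison of dimer and monomer is read.

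**Figure D1:**
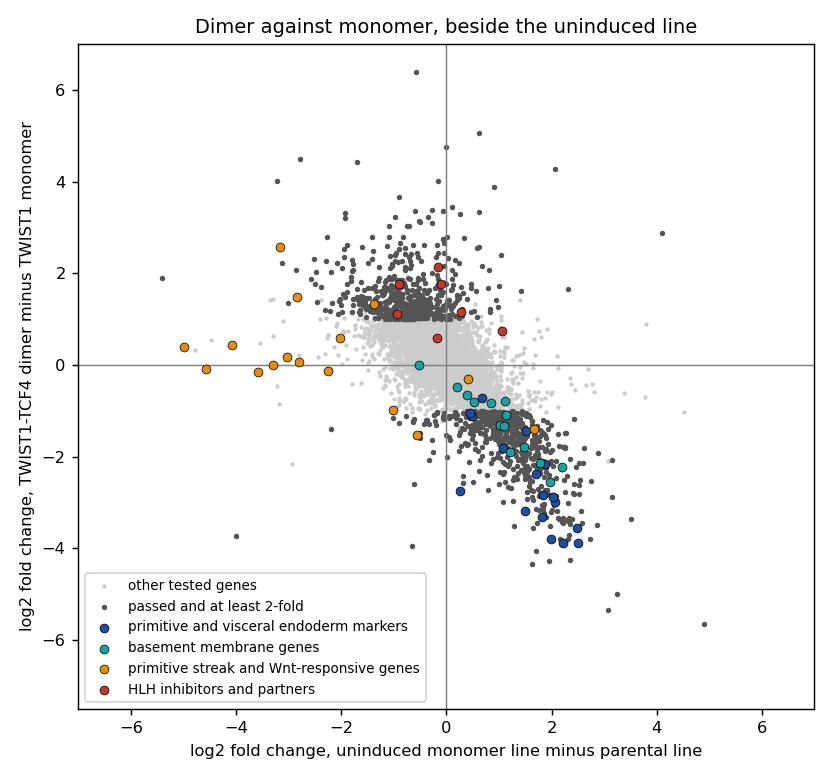
Each point is a tested gene, with the log2 fold change of the uninduced monomer line minus the parental line on the x axis and of the TWIST1-TCF4 dimer minus the TWIST1 monomer on the y axis; the 2 axes share no samples. The primitive and visceral endoderm markers (blue) and the basement membrane genes other than Lama5 (teal) lie at the lower right, most primitive streak and Wnt-responsive genes (orange) at the left near 0 on the y axis, and the helix-loop-helix inhibitors and partners (red) above 0.

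For this reason each value below is accompanied, where it matters, by a difference of differences, the dimer line minus the parental line, less the induced minus the uninduced monomer line. It passed for 1242 genes (8.82%), 610 higher (4.33%) and 632 lower (4.49%). It shares its samples with the comparison of dimer and monomer, so it is not a separate line of evidence, and it takes the parental line as the control of a line that it may not match. Its controls also differ in doxycycline, which the parental samples had and the uninduced monomer samples had not.

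All 4 ID genes were higher in the dimer group. Id1 stood at 273, 242 and 218 CPM in the dimer samples and 74.7, 74.4 and 65.4 CPM in the monomer samples, a log2 fold change of 1.77 ± 0.10 (adjusted p = 1.5e-15). Every dimer sample was above every monomer sample, and both groups were above the uninduced line (27.7 to 31.6 CPM) and the parental line (30.9 to 32.9 CPM). Id3 stood at 169, 143 and 123 CPM against 45.2, 42.1 and 40.5 CPM, a log2 fold change of 1.76 ± 0.10 (adjusted p = 3.2e-15). Id2 was 162, 148 and 131 CPM against 68.9, 64.5 and 64.3 CPM (1.15 ± 0.10, adjusted p = 1.4e-10). Id4 was 18.6, 15.6 and 11.7 CPM against 3.08, 3.82 and 3.34 CPM (2.14 ± 0.22, adjusted p = 1.5e-09). In all 4 the groups did not overlap. The difference of differences passed for each of them, at 1.66 for Id1, 1.43 for Id2, 0.85 for Id3 and 1.99 for Id4 (adjusted p = 0.0017 or less). Hes1 and Hey1, repressors that act downstream of Notch receptors, rose by 0.59 ± 0.09 and 1.10 ± 0.17. Hey2 did not pass (0.74 ± 0.33, adjusted p = 0.067). The difference of differences did not pass for Hes1 (0.40, adjusted p = 0.082) or Hey1 (0.16, adjusted p = 0.76). For Hey2 it passed (1.79, adjusted p = 0.040). In all, 6 of the 7 tested helix-loop-helix inhibitors and partners were higher and none lower, with a median of 1.15. Of all tested genes 24.6% were higher and 22.2% lower.

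Repressors that drive the loss of epithelial state rose. Snai1 stood at 30.5, 25.8 and 25.0 CPM in the dimer samples and 4.68, 5.40 and 4.85 CPM in the monomer samples, and all dimer samples were above all monomer samples. Its log2 fold change was 2.44 ± 0.20 (adjusted p = 1.2e-11), and the difference of differences was 2.28 (adjusted p = 5.4e-05). Zeb2 stood at 16.0, 18.4 and 15.3 CPM against 3.99, 3.71 and 4.31 CPM, a log2 fold change of 2.04 ± 0.16 (adjusted p = 1.1e-11). The parental line held 7.36 to 10.9 CPM and the uninduced monomer line 2.12 to 2.94 CPM, and for Zeb2 the difference of differences did not pass (0.24, adjusted p = 0.69). Snai2 (1.65 ± 0.35), Prrx1 (1.16 ± 0.32) and Zeb1 (0.90 ± 0.21) also passed as higher, Prrx1 not without dimer sample 3. Snai3 was at 0.12 ± 0.20 (adjusted p = 0.65), while Twist2 and Foxc2 were too low to be tested. Thus 5 of 6 tested factors rose, with a median of 1.40, beside 24.6% of all tested genes. The difference of differences passed as higher for 4 of the 6 and not for 2.

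Genes of the mesenchymal matrix and cytoskeleton rose in 10 of 15 cases and fell in 3, with a median of 0.69. Of the 15, 8 were lower and 4 higher in the uninduced monomer line than in the parental line, and the difference of differences passed as higher for 3, as lower for 1 and not for 11. Cdh11, a cadherin of mesenchymal cells, stood at 35.7, 39.7 and 35.8 CPM in the dimer samples and 4.45, 3.37 and 3.34 CPM in the monomer samples. The groups lay far apart, with a log2 fold change of 3.31 ± 0.16 (adjusted p = 7.9e-17), and the parental line fell between them at 10.3 to 11.7 CPM. Mmp2, a matrix protease gene outside this list, stood at 196, 193 and 197 CPM against 71.1, 69.1 and 66.4 CPM (1.51 ± 0.05, adjusted p = 7.5e-20). Fbn2, which encodes the microfibril protein fibrillin, stood at 15.8, 14.1 and 12 CPM against 3.42, 1.8 and 3.45 CPM (2.26 ± 0.18, adjusted p = 1.1e-11). For these 3 genes the difference of differences passed, at 1.39 for Cdh11, 0.45 for Mmp2 and 1.27 for Fbn2. Smaller rises were those of Vim (0.62 ± 0.08), Cdh2 (0.41 ± 0.08) and Vcan (0.69 ± 0.07), which encode vimentin, N-cadherin and versican. Vcan did not pass with all 21 samples, and for Cdh2 the difference of differences had the other sign (-0.47, adjusted p = 0.009). Tnc (-1.38 ± 0.19), Postn (-1.31 ± 0.28) and Fn1 (-0.39 ± 0.08) fell, Fn1 not with all 21 samples. Tnc, Postn and Fn1 were higher in the uninduced monomer line than in the parental line, by 1.43, 1.17 and 0.30. Of 10 fibrillar and associated collagens 4 rose, among them Col5a1 (0.84 ± 0.10) and Col1a2 (0.86 ± 0.18), and 2 fell, with a median of 0.01. Of all tested genes 24.6% rose and 22.2% fell. One of the falls was that of Col6a1 (-0.68 ± 0.15), and the count of falls was 1 without monomer sample 1 or without dimer sample 3.

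Epithelial genes did not fall together. Of 16 junction and keratin genes 8 fell and 2 rose, with a median of -0.19, beside 22.2% of all tested genes that fell and 24.6% that rose. Cdh1, which encodes E-cadherin, stood at 1056, 1049 and 1090 CPM in the dimer samples and 753, 780 and 746 CPM in the monomer samples. It was higher in every dimer sample, by 0.49 ± 0.04 (adjusted p = 6.0e-11), and the parental line stood at 1022 to 1034 CPM. Krt19 (-0.92 ± 0.19), Pkp2 (-0.48 ± 0.06) and Cldn6 (-0.46 ± 0.07), a keratin and parts of desmosomes and tight junctions, had the largest falls. With all 21 samples the count of falls was 3, and without the genes of chromosome 8 it was 5. Cdh11, Mmp2 and Cdh1 lie on chromosome 8, whose genes were shifted as a whole, as described below.

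Other large rises were in genes of varied roles. Slc1a2, a glutamate transporter of astrocytes, stood at 5.31, 5.26 and 4.48 CPM in the dimer samples and 0.228, 0.337 and 0.323 CPM in the monomer samples. The dimer samples were the high ones, with the uninduced line at 0.210 to 0.490 CPM and the parental line at 0.306 to 0.547 CPM. Its log2 fold change was 4.01 ± 0.33 (adjusted p = 2.0e-11) and its difference of differences 3.85 (adjusted p = 0.0014). Tril, a partner of Toll-like receptors, stood at 40.6, 34.3 and 29.3 CPM against 3.42, 2.47 and 2.26 CPM (3.66 ± 0.18, adjusted p = 1.9e-16). Zic1, a zinc finger factor of the dorsal neural tube and somites, stood at 7.53, 7.84 and 6.01 CPM against 1.03, 0.562 and 0.646 CPM (3.23 ± 0.27, adjusted p = 2.1e-11). For Tril and Zic1 the groups did not overlap and the difference of differences passed, at 2.75 and 2.26. Bhlhe22, a basic helix-loop-helix factor of neurons, stood at 5.71, 7.5 and 4.54 CPM against 0, 0.337 and 0.431 CPM (4.42 ± 0.45, adjusted p = 1.6e-09). Tmem132c, a membrane protein gene, rose by 3.38 ± 0.35 and Fbln5, which encodes an elastic fibre protein, by 3.10 ± 0.21. For Bhlhe22, Tmem132c and Fbln5 the difference of differences did not pass (adjusted p = 0.16, 0.22 and 0.091). Lrp1, an endocytic receptor, stood at 119, 115 and 138 CPM against 49.1, 46.0 and 50.9 CPM (1.36 ± 0.10, adjusted p = 7.3e-13), with the parental line at 79.1 to 101 CPM.

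**Figure D2:**
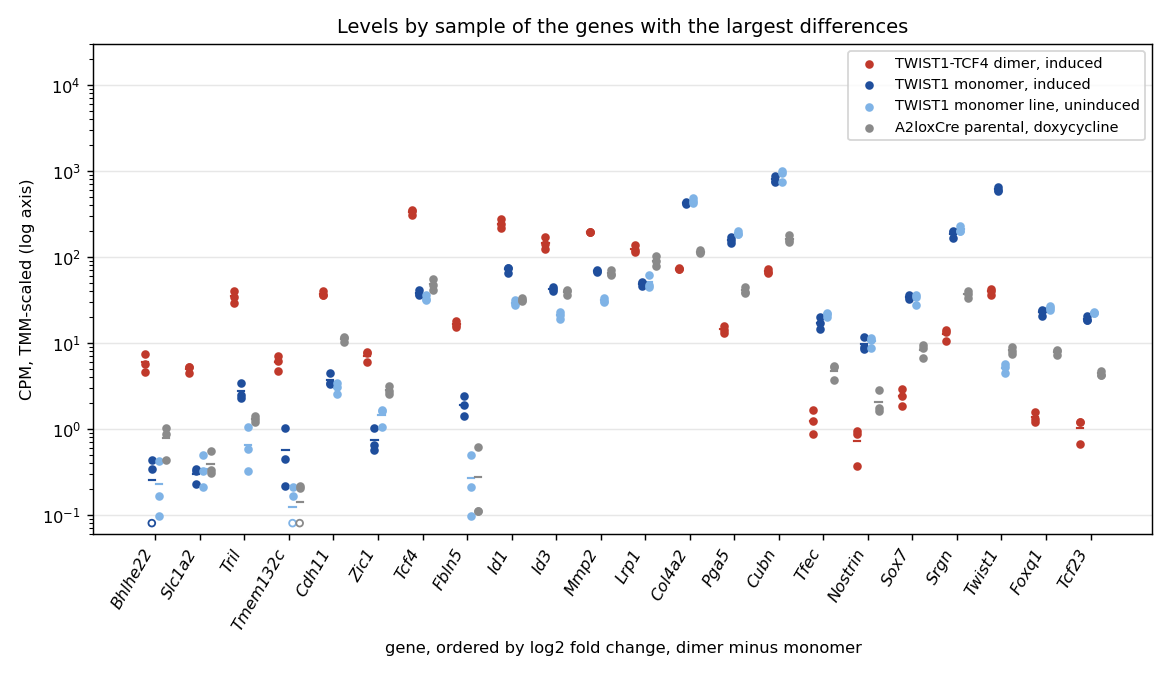
Each point is 1 sample, and short bars are means of 3 samples; the y axis is the level in CPM on a log scale, and genes are ordered by log2 fold change. Open circles mark samples below 0.08 CPM, drawn at that value. The red dimer points lie above the dark blue monomer points for the 12 genes at the left and below them for the 10 at the right, where the uninduced monomer line (light blue) lies close to the monomer samples except for Twist1.

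Promoter sequences are shown for 4 of the genes that rose and 1 that fell, because the factors compared bind E-boxes and the starts shown lie close to 1 such site. They were chosen after the values of the genes were seen, among annotated starts. The 250 bases before each start hold 1 E-box and overlap no exon of the GENCODE M21 annotation. They come from RefSeq on GRCm38.p6, run 5′ to 3′ on the strand of the gene and end at the base before the start. Capitals mark the E-box CANNTG, which reads as CANNTG on both strands.
Snai1, chr2:167537945-167538194, plus strand: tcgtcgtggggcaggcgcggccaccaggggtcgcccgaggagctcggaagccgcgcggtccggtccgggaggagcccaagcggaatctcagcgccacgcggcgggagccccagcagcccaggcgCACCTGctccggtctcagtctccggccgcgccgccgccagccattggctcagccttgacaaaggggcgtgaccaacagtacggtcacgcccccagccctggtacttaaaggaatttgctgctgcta
Meox2, chr12:37108290-37108539, plus strand: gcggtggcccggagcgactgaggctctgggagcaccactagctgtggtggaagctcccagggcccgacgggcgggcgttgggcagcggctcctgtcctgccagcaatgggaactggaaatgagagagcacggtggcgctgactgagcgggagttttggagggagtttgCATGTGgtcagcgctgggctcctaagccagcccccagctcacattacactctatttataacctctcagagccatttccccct
Fbln5, chr12:101819120-101819369, minus strand: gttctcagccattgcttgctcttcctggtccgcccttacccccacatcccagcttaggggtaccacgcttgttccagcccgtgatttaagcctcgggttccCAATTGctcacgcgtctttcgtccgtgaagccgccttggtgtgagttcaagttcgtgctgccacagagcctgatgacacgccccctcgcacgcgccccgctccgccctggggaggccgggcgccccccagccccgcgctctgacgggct
Mef2c, chr13:83573357-83573606, plus strand: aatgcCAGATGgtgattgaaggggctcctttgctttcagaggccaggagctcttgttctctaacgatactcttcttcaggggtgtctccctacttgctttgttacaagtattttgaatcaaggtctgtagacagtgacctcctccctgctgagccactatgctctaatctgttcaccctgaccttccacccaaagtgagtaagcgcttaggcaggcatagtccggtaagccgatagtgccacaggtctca
Cubn, chr2:13491877-13492126, minus strand: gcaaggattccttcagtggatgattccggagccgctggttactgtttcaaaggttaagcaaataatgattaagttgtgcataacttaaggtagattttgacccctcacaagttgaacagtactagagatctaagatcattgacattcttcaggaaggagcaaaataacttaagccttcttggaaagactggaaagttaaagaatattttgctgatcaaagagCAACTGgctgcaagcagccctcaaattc
The first base of the E-box lay 126 bases before the start in Snai1, 82 in Meox2, 149 in Fbln5, 245 in Mef2c and 28 in Cubn. The letters were CACCTG in Snai1, CATGTG in Meox2, CAATTG in Fbln5, CAGATG in Mef2c and CAACTG in Cubn. Mef2c and Fbln5 have other annotated starts, and 1 start of each is shown. The window of the other Fbln5 start holds 0 E-boxes, and those of the other Mef2c starts hold 2 and 0. In the RefSeq table CANNTG was found in 66.2% of 32851 windows of 250 bases, so its presence is common. CATCTG or its reverse complement CAGATG was found in 14.4%, CAGGTG or CACCTG in 17.2%, CAGCTG in 13.0% and CATATG in 3.46%. A match is a description of letters and not a bound site. Of the tested genes 72.5% had a window, and called and other genes were not compared for E-boxes.

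Markers of the primitive and visceral endoderm, the extraembryonic layers that enclose the early embryo, were lower in the dimer group in all 17 cases tested, with a median of -2.84. Of all tested genes 22.2% were lower. Fewer cells of a type and less RNA per cell cannot be told apart in these bulk samples. Cubn, an uptake receptor of the visceral endoderm, stood at 67.4, 71.6 and 65.1 CPM in the dimer samples and 768, 750 and 874 CPM in the monomer samples. Every dimer sample was below every monomer sample (log2 fold change -3.55 ± 0.13, adjusted p = 7.5e-20). In the uninduced monomer line it stood at 748 to 1002 CPM, and in the parental line at 149 to 177 CPM. Amn, which anchors the product of Cubn in the membrane, stood at 7.53, 7.5 and 8.03 CPM against 64.7, 59.4 and 60.4 CPM (-2.99 ± 0.10, adjusted p = 1.7e-20).

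The transcription factors of this tissue were low in the same samples. Gata6, which specifies primitive endoderm, stood at 4.44, 4.48 and 4.78 CPM against 41.4, 46.2 and 50.6 CPM (-3.33 ± 0.13, adjusted p = 2.3e-19). Sox17 stood at 2.22, 1.81 and 2.09 CPM against 17.8, 18.8 and 19.5 CPM (-3.18 ± 0.14, adjusted p = 6.7e-18). Sox7 stood at 1.82, 2.41 and 2.94 CPM against 32.8, 35.8 and 33.8 CPM (-3.80 ± 0.15, adjusted p = 3.0e-19). In each the groups were separate, with the uninduced monomer line at the monomer level and the parental line in between. Hnf4a (-2.89 ± 0.17) and Foxa2 (-2.75 ± 0.20), factors of endoderm and its epithelia, fell as well. Srgn, a proteoglycan gene, stood at 10.4, 13.5 and 14 CPM against 165, 200 and 194 CPM (-3.87 ± 0.10, adjusted p = 9.1e-24). The smallest fall of the list was that of Apoe (-0.72 ± 0.07), and Afp, Apoa1 and Fgb were too low to be tested. The summed level of the list was 577 to 637 CPM in the dimer samples, 2174 to 2436 CPM in the monomer samples, 2441 to 2809 CPM in the uninduced monomer line and 896 to 959 CPM in the parental line. Between the uninduced monomer line and the parental line 16 of the 17 were higher and none lower. The difference of differences passed as lower for 12 of the 17 (median -0.93), among them Foxa2 (-2.49), Sox17 (-1.70) and Gata6 (-1.51).

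Other genes with large falls showed the same order of groups. Tcf23, a basic helix-loop-helix gene, stood at 1.19, 1.21 and 0.675 CPM in the dimer samples and 18.5, 18.7 and 20.5 CPM in the monomer samples (-4.26 ± 0.18, adjusted p = 2.5e-18). Foxq1, a forkhead factor, stood at 1.58, 1.21 and 1.29 CPM against 20.5, 24.4 and 23.4 CPM (-4.06 ± 0.14, adjusted p = 1.6e-20). In both the dimer samples were below those of the monomer and parental lines, and the parental line, at 4.27 to 4.72 CPM for Tcf23 and 7.23 to 8.23 CPM for Foxq1, was below the monomer line in both states. Tfec (-3.79 ± 0.19), Nostrin (-3.80 ± 0.26) and Pga5 (-3.46 ± 0.10), a transcription factor of the MITF family, a regulator of endothelial nitric oxide synthase and a pepsinogen, fell too. The difference of differences passed as lower for Tcf23 (-1.92), Foxq1 (-2.36), Tfec (-1.63), Nostrin (-1.49) and Pga5 (-1.23).

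Of 14 basement membrane genes 13 fell, with a median of -1.20, beside 22.2% of all tested genes. Col4a1 stood at 178, 185 and 196 CPM in the dimer samples and 794, 816 and 852 CPM in the monomer samples (-2.14 ± 0.06, adjusted p = 2.9e-23). Col4a2, which encodes the other chain of the same collagen IV trimer, stood at 73.7, 72.4 and 72.6 CPM against 419, 416 and 440 CPM (-2.55 ± 0.06, adjusted p = 9.1e-24). Lama1, a laminin chain of embryonic basement membranes, stood at 126, 135 and 144 CPM against 605, 620 and 671 CPM (-2.23 ± 0.08, adjusted p = 1.5e-20). In these 3 genes no dimer sample came near a monomer sample. Lamb1 (-1.32 ± 0.05), Lamc1 (-1.89 ± 0.06) and Sparc (-1.78 ± 0.06) fell too, whereas Lama5 did not pass (-0.01 ± 0.08, adjusted p = 0.94). The summed level was 1905 to 2056 CPM in the dimer samples, 5262 to 5612 CPM in the monomer samples, 5304 to 5793 CPM in the uninduced monomer line and 2400 to 2563 CPM in the parental line. Between the last 2 groups 13 of the 14 were higher in the uninduced monomer line and Lama5 was lower. The difference of differences passed as lower for 7, among them Lamc1 (-0.69), Col4a2 (-0.57) and Lama5 (-0.54), and as higher for Nid1 (0.32), and for Lama1 it did not pass (-0.03, adjusted p = 0.91).

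**Figure D3:**
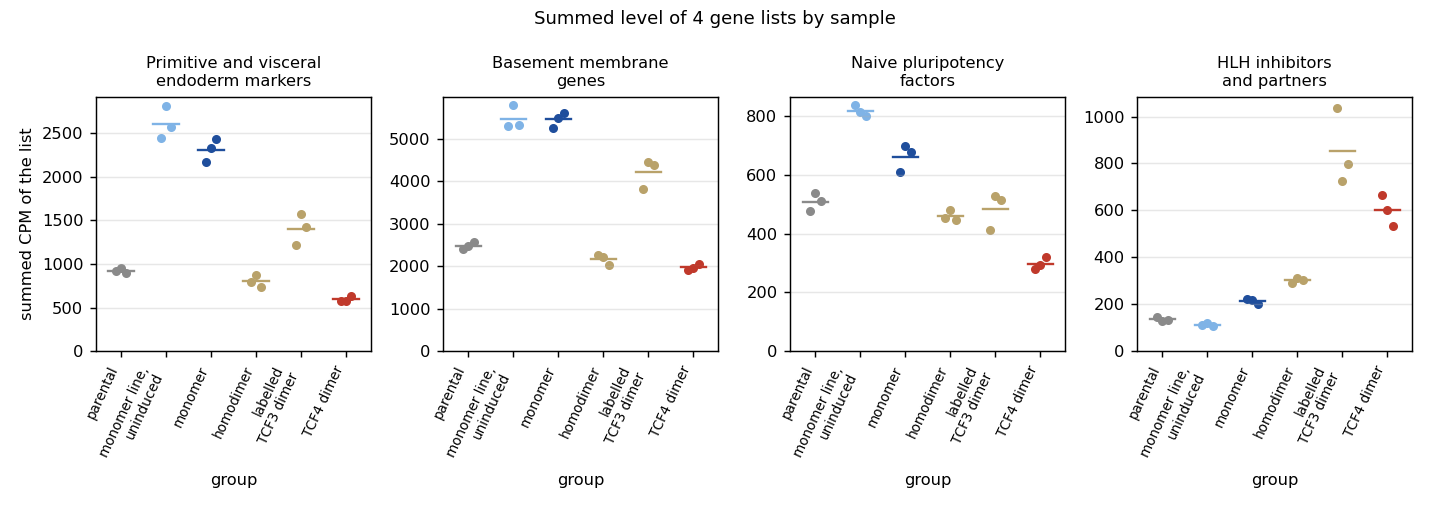
Each point is 1 sample, bars are means of 3 samples, and the y axis is the summed CPM of all members of a list, starting at 0. Endoderm and basement membrane sums are high in the monomer line with and without doxycycline. They are lower in the parental line, the homodimer and the TCF4 dimer. The basement membrane sums of the homodimer, 2037 to 2253 CPM, overlap those of the TCF4 dimer, 1905 to 2056 CPM. The TCF4 dimer samples have the lowest endoderm and naive pluripotency sums. Their sums of helix-loop-helix inhibitors and partners, 532 to 667 CPM, lie above the monomer samples, at 203 to 223 CPM. They lie below the libraries labelled TCF3 dimer, at 726 to 1038 CPM.

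Naive pluripotency genes, active in the inner cell mass and in ground-state stem cells, fell in 12 of 14 cases, with a median of -1.60. Of all tested genes 22.2% fell. Klf4 stood at 3.33, 2.33 and 3.37 CPM in the dimer samples and 14.5, 16.6 and 14.8 CPM in the monomer samples (-2.32 ± 0.16, adjusted p = 2.5e-13). Esrrb stood at 26.9, 30.0 and 36.1 CPM against 76.3, 90.6 and 89.1 CPM (-1.45 ± 0.11, adjusted p = 4.4e-12). Zfp42 stood at 60.4, 62.8 and 65.1 CPM against 162, 201 and 199 CPM (-1.58 ± 0.08, adjusted p = 4.3e-16). In these 3 genes the dimer samples were all lower, and the parental line was closer to them than to the monomer line. Nanog went the other way, at 82.6, 91.3 and 102 CPM against 51.4, 59.4 and 58.8 CPM (0.71 ± 0.09, adjusted p = 8.6e-08), with the parental line highest at 204 to 221 CPM. Dppa3 did not pass (0.03 ± 0.32, adjusted p = 0.94). The 12 genes that fell were each higher in the uninduced monomer line than in the parental line, and the other 2 of the list, Nanog and Dppa3, were lower there. The difference of differences passed for 4 of the 14, all lower, with Tbx3 at -1.26 and Nanog at -0.77. Core and formative genes were split, 6 higher and 7 lower of 16 with a median of 0.01, beside 24.6% and 22.2% of all tested genes. Dnmt3l, a cofactor of DNA methylation, fell from 167 to 188 CPM in the monomer samples to 58.4 to 70.5 CPM (-1.44 ± 0.08), and Otx2 (0.45 ± 0.06) and Fgf5 (0.53 ± 0.07), which mark the formative state, rose.

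Primitive streak genes mark the site where mesoderm arises. Of the 16 tested in a list of streak and Wnt-responsive genes, 8 did not pass. T, the brachyury gene, stood at 1.35, 2.24 and 1.35 CPM in the dimer samples and 1.14, 1.46 and 0.970 CPM in the monomer samples (0.43 ± 0.31, adjusted p = 0.27). Mixl1, Eomes, Fgf8, Wnt3, Wnt8a, Evx1 and Sp5 did not pass either. The parental line was well above both groups, at 23.8 to 29.8 CPM for T and 127 to 145 CPM for Eomes, against 19.1 to 20.6 CPM for Eomes in the dimer samples and 21 to 22.8 CPM in the monomer samples. The uninduced monomer line was low too, and the difference of differences was -3.64 for T and -2.39 for Eomes. Sp8, a zinc finger factor of limb and brain development, had the largest rise of the list, at 14.7, 13.6 and 14.2 CPM against 2.74, 1.8 and 2.59 CPM (2.57 ± 0.16, adjusted p = 6.2e-14). Its dimer samples overlapped the parental line, at 13.7 to 16.1 CPM. Axin2 (0.59 ± 0.10) and Nkd1 (1.33 ± 0.18), feedback inhibitors of Wnt signalling, rose and Notum (-1.40 ± 0.19), which inactivates Wnt proteins, fell. Of the 16, 12 were lower and 2 higher in the uninduced monomer line than in the parental line. The difference of differences passed as lower for 11 of the 16. It passed as higher for none of them, including Sp8, Axin2 and Nkd1. Between dimer and monomer 4 of the list rose and 4 fell, with a median of 0.03. These shares were near the 24.6% and 22.2% of all tested genes that rose and fell. The count of falls was 2 without monomer sample 1, without dimer sample 1, without dimer sample 3 or with all 21 samples.

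Genes of the Nodal pathway fell in 7 of 10 cases and rose in 2, with a median of -0.76. Of all tested genes 22.2% fell and 24.6% rose. Lefty1 stood at 27.7, 29.4 and 32.3 CPM in the dimer samples and 95.1, 116 and 107 CPM in the monomer samples (-1.82 ± 0.09, adjusted p = 3.3e-17). Lefty2 stood at 23.5, 21.4 and 23.9 CPM against 73.7, 81.1 and 78.4 CPM (-1.76 ± 0.08, adjusted p = 3.7e-17). The LEFTY proteins are inhibitors that Nodal signalling itself switches on, and for both genes all dimer samples were below all monomer samples. The coreceptor gene Tdgf1 (-0.93 ± 0.06) and the ligand gene Nodal (-0.59 ± 0.13) fell as well. The difference of differences passed as lower for 7 of the 10, at -1.49 for Nodal, -1.36 for Lefty2, -1.27 for Lefty1 and -1.23 for Tdgf1. Smad7 did not pass (-0.06 ± 0.06, adjusted p = 0.46).

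BMP pathway genes moved in both directions, 6 up and 5 down of 13 tested, with a median of -0.21, beside 24.6% and 22.2% of all tested genes. The difference of differences passed as higher for 3 of the 13, as lower for 1 and not for 9. Among ligands, Bmp7 stood at 20.1, 20.1 and 18.7 CPM against 2.74, 2.47 and 1.94 CPM (3.04 ± 0.18, adjusted p = 1.3e-14). Bmp2 stood at 0.792, 0.517 and 0.736 CPM against 4.68, 4.39 and 3.23 CPM (-2.55 ± 0.26, adjusted p = 2.8e-09). So the groups were separate in opposite directions for the 2 ligands, and the difference of differences passed for both, at 2.28 for Bmp7 and -1.43 for Bmp2. Bmp4 did not pass (-0.30 ± 0.13, adjusted p = 0.062). The inhibitor Smad6 rose (2.65 ± 0.35), and the target Msx1 (1.47 ± 0.23) rose while Msx2 fell (-1.28 ± 0.30).

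Notch pathway genes were higher in 8 of 15 cases and lower in 2, with a median of 0.46, beside 24.6% and 22.2% of all tested genes. Of the 15, 5 were lower and 2 higher in the uninduced monomer line than in the parental line. Of all tested genes 18.6% were lower and 19.4% higher there. The difference of differences passed as higher for 3, as lower for none and not for 12. Over all tested genes it passed as higher for 4.33% and as lower for 4.49%. Dll3, an inhibitory ligand, stood at 36.5, 40.7 and 39.4 CPM in the dimer samples and 11.3, 10.2 and 11.5 CPM in the monomer samples (1.82 ± 0.09, adjusted p = 1.2e-16), with no overlap, and its difference of differences was 0.95 (adjusted p = 5.4e-05). The ligand genes Jag1 (0.82 ± 0.09) and Dll1 (-0.87 ± 0.14) moved apart. Hes3 had no counts in the dimer samples and 16 in the monomer samples, at least 7.77-fold lower when 3 counts over the group are taken as the floor, and with it at that bound the median stayed at 0.46. With all 21 samples the count of rises was 4. In the FGF pathway 9 of 17 fell and 5 rose, with a median of -0.24, beside 22.2% and 24.6% of all tested genes. Its difference of differences passed as higher for 3 genes, as lower for 3 and not for 11. The receptor genes split: Fgfr1 (0.81 ± 0.05) and Fgfr2 (0.51 ± 0.10) rose, and Fgfr3 (-1.55 ± 0.22) and Fgfr4 (-1.88 ± 0.18) fell. Spry2, a feedback inhibitor, fell by 0.97 on the log2 scale.

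Factors of lateral and cardiac mesoderm were mostly higher in the dimer group, and those that rose were low in counts. Of 8 tested, 5 were up and 2 down with a median of 2.39, beside 24.6% and 22.2% of all tested genes. The summed level of the list went the other way, at 27.4 to 32.3 CPM in the dimer samples and 106 to 114 CPM in the monomer samples. The difference of differences passed as higher for 3 of the 8, as lower for 2 and not for 3. Hand1 stood at 3.57, 2.24 and 2.21 CPM in the dimer samples and 0.342, 0.225 and 0.215 CPM in the monomer samples (3.29 ± 0.51, adjusted p = 4.0e-06). Hand2 had 44 counts in the dimer samples and 1 in the monomer samples, a ratio per total count of 30.2 with a 95% counting interval of 5.14 to 1219. Mef2c stood at 5.86, 4.48 and 3.25 CPM against 0.913, 0.787 and 0.754 CPM (2.43 ± 0.33, adjusted p = 3.5e-07). All 3 are factors of the developing heart, and for Hand1 and Mef2c the difference of differences passed, at 3.54 and 1.88. The 2 that fell, Gata4 (-2.72 ± 0.10) and Tbx3 (-2.89 ± 0.11), are also expressed in extraembryonic endoderm and in naive stem cells, and were higher in the uninduced monomer line than in the parental line by 1.92 and 1.63.

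Among paraxial and mesenchymal factors 4 rose and 2 fell of 11 tested, with a median of 0.98, beside 24.6% and 22.2% of all tested genes that rose and fell. The difference of differences passed as higher for 1 of the 11, as lower for 1 and not for 9. Meox2, a homeobox factor of somites and limb muscle, had 53 counts in the dimer samples and 1 in the monomer samples, a ratio of 36.4 with a counting interval of 6.25 to 1463. Prrx2 stood at 11.3, 9.91 and 9.38 CPM against 4.34, 3.15 and 3.12 CPM (1.52 ± 0.19, adjusted p = 1.2e-07). Pax3 stood at 3.33, 3.36 and 2.64 CPM against 0.342, 0.675 and 0.862 CPM (2.26 ± 0.36, adjusted p = 6.3e-06). For Prrx2 and Pax3, factors of limb mesenchyme and of somite and neural crest, every dimer sample was higher.

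Neural crest markers were higher in 5 of 7 cases and lower in none, with a median of 0.77, beside 24.6% and 22.2% of all tested genes. The difference of differences passed as higher for 2 of the 7 and not for 5. Ets1 (0.66 ± 0.09), a factor of migrating crest cells, and Erbb3 (0.45 ± 0.08), a neuregulin receptor gene, were among the rises, Erbb3 not with all 21 samples. Without monomer sample 3 the count of rises was 3. Neural markers split, 5 higher and 2 lower of 8, beside the same shares of all tested genes. Nes (0.72 ± 0.06) and Tubb3 (0.77 ± 0.07) were among the rises, and Hesx1 (-3.04 ± 0.40) and Sox21 (-1.79 ± 0.31) were the falls. Hemangiogenic genes, of blood and vessel, split likewise, 4 higher and 5 lower of 14 with a median of -0.08, beside 24.6% and 22.2% of all tested genes. For them the difference of differences passed as higher for 1, as lower for 1 and not for 12. Fli1 (3.23 ± 0.47) and Kdr (1.44 ± 0.22) rose. Runx1 stood at 1.11, 1.12 and 0.859 CPM in the dimer samples and 11.3, 12.3 and 12.5 CPM in the monomer samples (-3.55 ± 0.18, adjusted p = 3.5e-16). Its order of groups was that of the endoderm markers, with 9.47 to 12.1 CPM in the uninduced monomer line and 2.96 to 3.95 CPM in the parental line. Cd34, a surface protein of blood progenitors, was raised in both induced groups, at 53.8 to 63.8 CPM in the dimer and 72.3 to 78.9 CPM in the monomer samples against 4.79 to 7.36 CPM in the uninduced and parental samples. Without monomer sample 3, without dimer sample 2 or without the genes of chromosome 8, the count of hemangiogenic falls was 3.

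Definitive endoderm markers fell in 4 of 8 cases and rose in 1, with a median of -0.83, beside 22.2% of all tested genes that fell and 24.6% that rose. Without monomer sample 3 there were 2 rises. Of the 4 that fell, Sox17 and Foxa2 are also in the list of primitive and visceral endoderm. Trophoblast markers fell in 3 of 6 cases and rose in none, beside the same shares of all tested genes, with Plet1 lowest (-2.72 ± 0.20). Of 13 p53 targets 4 fell and 2 rose, with a median of -0.07, beside 24.6% and 22.2% of all tested genes that rose and fell, and the change of greatest size was that of Plk2 (-0.60 ± 0.07).

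**Figure D4:**
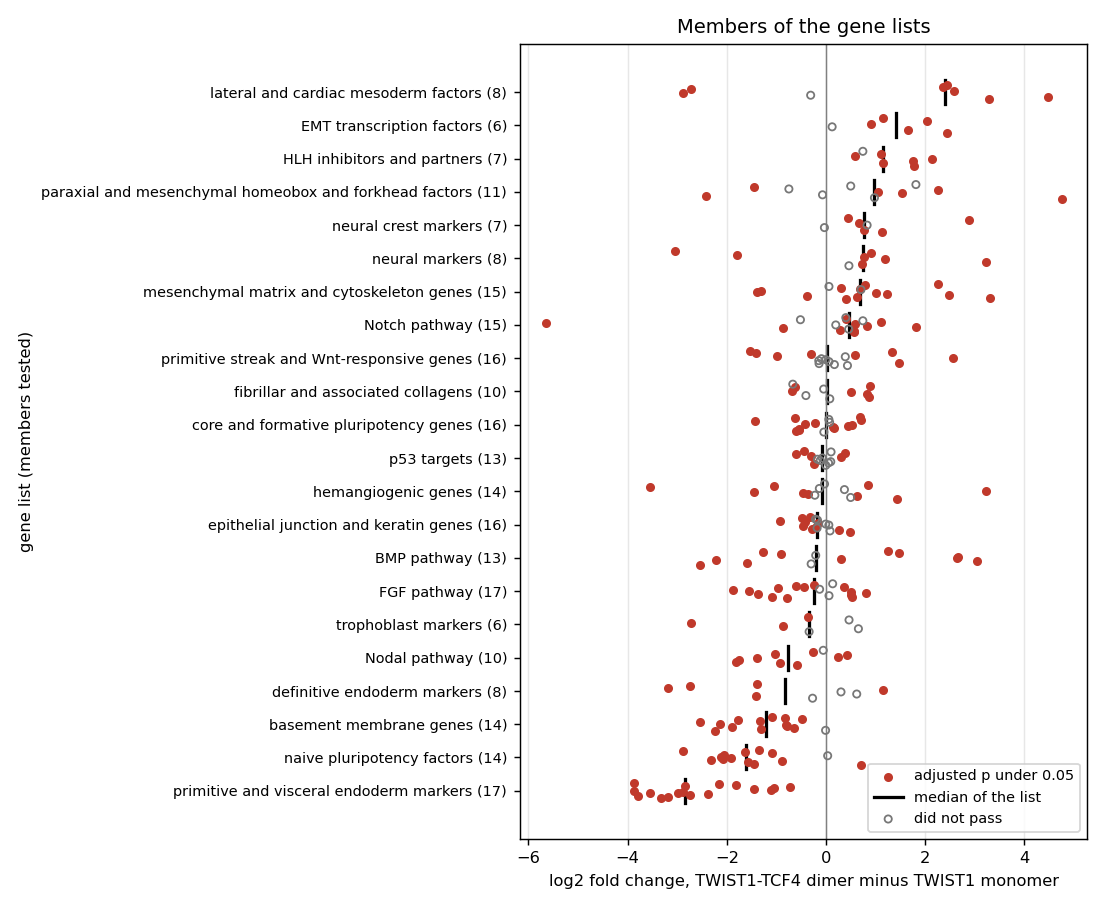
Each point is a tested member of a gene list, at its log2 fold change of the TWIST1-TCF4 dimer minus the TWIST1 monomer (x axis); filled points passed at an adjusted p under 0.05, and black bars are list medians. The fitted value of Hes3, at the far left, is no bound, since it has no dimer counts. Endoderm, naive pluripotency and basement membrane lists lie at the bottom with medians of -2.84, -1.60 and -1.20, and mesoderm and epithelial-mesenchymal transition factors at the top with medians of 2.39 and 1.40.

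The dimer group was also set against the other constructs in the same fit. Against the TWIST1 homodimer 2560 genes passed (18.2%), 1294 higher (9.19%) and 1266 lower (8.99%). Id1 was at 101 CPM in the homodimer line on average, below the dimer by 1.27 on the log2 scale, and Cdh11 was at 6.79 CPM, below it by 2.45. Fbln5, in contrast, was at 16.7 CPM in the homodimer line and did not pass against the dimer (log2 difference -0.03, adjusted p = 0.93). Cubn averaged 107 CPM and Col4a2 73.3 CPM there, against 68.0 and 72.9 CPM in the dimer line, and Col4a2 did not pass (-0.01, adjusted p = 0.95). Of the 14 basement membrane genes 3 were higher and 3 lower in the dimer than in the homodimer. Against the libraries labelled TCF3 dimer 5842 genes passed (41.5%), 2860 higher (20.3%) and 2982 lower (21.2%). In those libraries Tcf3 was 155 CPM and Tcf12 105 CPM on average, and Tcf3 was not raised over its level in the dimer and monomer samples, so these libraries are named by their label only. Slc1a2 and Tril, at 6.00 and 38.8 CPM there, did not pass against the TCF4 dimer (adjusted p = 0.20 and 0.22), while Id1, Id3 and Bhlhe22 were lower in the TCF4 dimer, with log2 differences of -0.42, -0.75 and -1.50. Snai1 and Cdh11, at 45.5 and 54.9 CPM there, were lower in the TCF4 dimer too (-0.75 and -0.57). Cubn averaged 421 CPM and Col4a2 314 CPM there, and both were lower in the TCF4 dimer (-2.63 and -2.11).

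Genes of chromosome 8 were shifted between the groups. Over 525 of its genes with at least 10 CPM on average, the median log2 difference from the parental mean was 0.0678, 0.0559 and 0.0964 in the dimer samples and -0.0978, -0.101 and -0.118 in the monomer samples. The dimer samples were thus above the parental mean and the monomer samples below it, and the uninduced monomer line, at -0.0946, lay with the monomer samples. The median difference between the groups, dimer minus monomer, was 0.178 over these genes after the same centring. Of the tested genes of chromosome 8, 49.7% were higher in the dimer group and 10.2% lower, against 23.2% and 22.9% on the other chromosomes. On chromosome 14 17.9% were higher and 34.4% lower. Cdh11, Mmp2, Cdh1, Fgfr1, Nkd1, Tubb3, Hand2, Col4a1, Col4a2 and Zfp42 are on chromosome 8, and the part of this shift in their differences was not tested. The rises of Cdh1 (0.49), Tubb3 (0.77) and Fgfr1 (0.81) stand beside a median of 0.178, which does not bound the shift of a single gene. Cdh1 was lower in the uninduced monomer line than in the parental line (-0.41). Its difference of differences did not pass (0.07, adjusted p = 0.52). Without the genes of chromosome 8, 6132 genes passed.

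**Figure D5:**
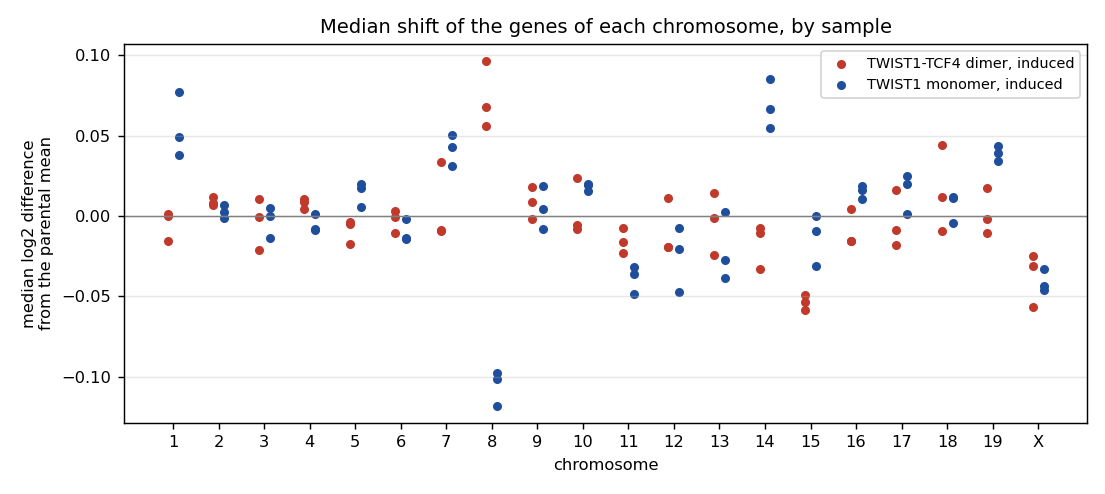
Each point is 1 sample, at the median log2 difference from the parental mean (y axis) over the genes of a chromosome (x axis), after subtracting the sample's median over all genes. Chromosome 8 has the dimer samples between 0.0559 and 0.0964 and the monomer samples between -0.118 and -0.0978.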

How the data were processed

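Whole-transcriptome RNA-seq counts per gene were used as deposited, 1 table per sample with 48321 gene symbols. Per the submitters' processing notes the authors used FastQC, TopHat2 and HTSeq with mm10 (GRCm38); versions, parameters and the strand setting of the counting are not given in the sources used here, so reads of overlapping and antisense genes cannot be told apart. Among the 48321 rows, 25 symbols had been turned into dates in the files of 18 samples. All files list genes in the same order, and these rows took the symbol of the same row in the others. No column of another sample was left unused (0).

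Genes were filtered with filterByExpr (at least 10 counts, 15 in total), scaled by TMM and tested with edgeR 4.0.16 (R 4.3.3, limma 3.58.1) by its quasi-likelihood test with Benjamini-Hochberg adjustment over all tested genes. The fit held 18 samples in 6 groups. The 3 samples labelled as the TCF12 dimer were left out, because 1 of them was known to raise the common estimate of spread. The procedure was tested on simulated data. Alternatives were DESeq2 1.42.0, other scalings and filters, other sets of samples, a replicate block, thinned counts, leaving out chromosome 8, and leaving out each sample. A fit of the comparison without uninduced monomer sample 1 was chosen after seeing the data.

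The genes and lists were chosen with earlier results of these data known. Named were the construct genes, the 8 highest and 8 lowest fold changes among separated genes of at least 5 CPM, the 5 and 5 of at least 100 CPM, and members of 23 lists (299 symbols). Totals of 6648842 to 15999693 counts per sample over the series make 3 counts, taken as the floor, equal to 0.19 to 0.45 CPM. Intervals and floors cover counting error only. Some genes of the rule and the lists are not reported here by name. Same-numbered samples were checked for pairing and did not deviate together.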

Additional observations from a re-analysis of the deposited data

Results flagged for a closer look

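Of 24 genes named by rule and reported here, 19 were flagged, beside 8.82% of all tested genes. For these 19 the change from the parental line to the dimer line differed from the change on induction of the monomer line. The test was that of the difference of differences (edgeR, largest adjusted p = 0.0173, SE 0.0869 to 0.779, n = 3 per group). Apart from the construct genes, the 24 were chosen for large differences between dimer and monomer, so their share is no separate evidence. The values are log2 differences of differences, and they share samples with the comparison of dimer and monomer. Among the construct genes Twist1 was at -4.61 and Tcf4 at 2.61. Among genes higher in the dimer group, Slc1a2 was at 3.85, Tril at 2.75, Zic1 at 2.26, Id1 at 1.66 and Cdh11 at 1.39. Id3 was at 0.85, Lrp1 at 0.55 and Mmp2 at 0.45. Among genes lower in the dimer group, Foxq1 was at -2.36, Tcf23 at -1.92, Sox7 at -1.81 and Tfec at -1.63. Nostrin was at -1.49, Srgn at -1.37, Pga5 at -1.23, Cubn at -1.08 and Col4a2 at -0.57. The control of the dimer line is the parental line and that of the monomer line is the same line without doxycycline, so a difference between these controls enters each value.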

How the results depend on the processing

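None of the 267 tested list members and named genes changed from a call in one direction to a call in the other in the alternatives of dimer against monomer. With all 21 samples the dimer against the monomer gave 3928 calls (2068 higher, 1860 lower), the uninduced against the parental line 2854, the difference of differences 300, the dimer against the libraries labelled TCF3 dimer 2819 and against the homodimer 835; the spread was 0.12 in that fit against 0.0536. Leaving out 1 of the 6 dimer and monomer samples at a time gave 5751 to 6160 calls for dimer against monomer, all below 6592. Without uninduced monomer sample 1, which is in neither group, there were 6691. Over these 7 fits 1135 to 1195 calls were of at least 2-fold. Leaving out 1 sample gave 4258 to 5203 for the uninduced line, 863 to 1165 for the difference of differences, 4950 to 5289 for the labelled TCF3 dimer and 1769 to 2270 for the homodimer. DESeq2 gave 5818 calls. With no scaling factors the split was 4013 higher and 2557 lower (61.1% higher) against 52.7% with TMM, and for the uninduced line 2062 higher and 3484 lower. With a replicate block 6657 genes passed against 6592 without it. Same-numbered dimer and monomer samples had correlations of 0.0308, -0.172 and -0.109, so the numbers do not pair them. Of 203 list members and named genes that passed, 162 passed in every one of the 18 alternatives in which they were tested (some filters and sample sets leave genes out), and 29 of the others were lost with all 21 samples. Of 828 list counts 801 stayed within 1.5 times. Genes of a few counts are limited by depth.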
